A study of Mus musculus with 6 samples.

Results

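Of the 7861 TAF4b peaks in replicate 1, 962 were annotated as intergenic by the authors, a share of 12.2% (95% Wilson interval 11.5 to 13.0). These 962 peaks are every row of that deposited list whose annotation class was Intergenic. No measured signal entered the choice beyond the calling of the peak itself. In replicate 2 the same class held 49 of 848 peaks, or 5.78% (4.40 to 7.56), and the mean over the libraries was 9.01% ± 4.57 (SD, n = 2). Among the higher-scoring 50% of replicate 1 peaks the share was 4.11%. The other classes in replicate 1 were promoter-TSS (around a transcription start site, or TSS) with 5756 peaks, intron with 747, exon with 249 and TTS (transcription termination site) with 143.

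The peaks came from CUT&RUN, in which a nuclease brought to an antigen by an antibody releases the DNA around it. The cells were prospermatogonia, germ cells of the male fetus, taken at E16.5 from males labelled C57BL/6 and Taf4b-wildtype. Every library, controls included, came from GFP-sorted cells of embryos of an Oct4-EGFP line listed as B6;129S4-Pou5f1tm2Jae/J, so the sort depended on activity of the reporter. Antibodies against TAF4b, H3K4me3 and IgG were each used in 2 replicates, and the 2 IgG libraries were not analysed here. The labels do not say whether replicates came from separate litters or pools, so spread between them may be technical.

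TAF4b is a germ-cell-enriched subunit of TFIID, the general transcription factor that recognises core promoters and helps to place RNA polymerase II at start sites. H3K4me3 is a histone mark deposited around active or poised start sites, mostly at CpG islands. The CCAAT box is the recognition sequence of NFY, a trimeric factor common at promoters, and the GC box is that of the SP and KLF factors. An intergenic call says only that no gene model of the annotation used lies there, so such peaks can fall on start sites missing from that annotation, on distal regulatory elements or on repeated DNA.

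Members that share sequence made up much of the set, and the 5 families below were the largest. Shown is the central member of each, meaning the peak aligned to most others, so that the shared CCAAT box can be seen. The intervals were chr14:82866554-82866696 for family 1, chr9:100857641-100857783 for family 2 and chr9:48895163-48895305 for family 3. Those of family 4 and family 5 were chr1:49801789-49801931 and chr10:124380454-124380596. All are the plus strand of GRCm39, and capitals mark CCAAT or its reverse complement ATTGG.
family 1: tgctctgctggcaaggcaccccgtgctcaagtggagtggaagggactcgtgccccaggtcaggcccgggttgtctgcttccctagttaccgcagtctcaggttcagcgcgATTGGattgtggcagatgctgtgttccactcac
family 2: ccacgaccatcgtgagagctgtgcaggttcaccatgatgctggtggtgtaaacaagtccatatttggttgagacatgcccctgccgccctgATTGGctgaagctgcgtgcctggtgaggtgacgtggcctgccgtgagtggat
family 3: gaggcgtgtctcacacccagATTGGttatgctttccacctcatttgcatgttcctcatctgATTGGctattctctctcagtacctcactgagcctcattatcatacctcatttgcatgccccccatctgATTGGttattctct
family 4: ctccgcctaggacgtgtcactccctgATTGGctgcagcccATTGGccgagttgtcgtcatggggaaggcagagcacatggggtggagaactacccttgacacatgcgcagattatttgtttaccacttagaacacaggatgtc
family 5: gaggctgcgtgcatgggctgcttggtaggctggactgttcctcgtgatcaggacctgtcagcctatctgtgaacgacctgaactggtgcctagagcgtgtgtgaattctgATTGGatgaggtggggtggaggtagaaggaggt
The central member of family 3 held 3 boxes and that of family 4 held 2, while the others held 1 each.

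The next intervals belong to 6 of the 7 peaks with the highest replicate 2 scores among the intergenic peaks of replicate 1 found in both replicates. All of them carried a searched consensus, and each is named by the nearest gene in the deposited annotation. Capitals mark any of the consensus sequences, on either strand, that are listed with the motif results below. Kdm5b (a demethylase of histone H3 lysine 4) is represented by chr1:134484779-134484921, Gm42489 (a long noncoding RNA) by chr5:111792017-111792159 and Cpeb4 (an RNA-binding protein of cytoplasmic polyadenylation) by chr11:31820722-31820864. Sh3pxd2a (a scaffold protein of podosomes) is represented by chr19:47464648-47464790, Ssc4d (a scavenger receptor family member) by chr5:135986477-135986619 and C2cd5 (a C2-domain protein) by chr6:142952186-142952328. All are plus-strand GRCm39.
Kdm5b: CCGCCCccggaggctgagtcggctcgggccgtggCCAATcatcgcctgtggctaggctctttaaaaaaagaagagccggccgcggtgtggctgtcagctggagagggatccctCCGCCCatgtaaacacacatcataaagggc
Gm42489: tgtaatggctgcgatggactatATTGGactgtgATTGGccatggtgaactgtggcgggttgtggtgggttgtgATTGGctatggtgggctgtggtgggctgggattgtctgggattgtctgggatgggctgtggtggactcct
Cpeb4: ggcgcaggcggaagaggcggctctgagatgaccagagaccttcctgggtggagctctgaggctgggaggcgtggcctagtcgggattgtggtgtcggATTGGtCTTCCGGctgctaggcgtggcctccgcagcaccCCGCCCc
Sh3pxd2a: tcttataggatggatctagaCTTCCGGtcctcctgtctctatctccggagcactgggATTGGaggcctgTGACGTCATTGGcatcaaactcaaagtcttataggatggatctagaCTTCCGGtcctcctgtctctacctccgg
Ssc4d: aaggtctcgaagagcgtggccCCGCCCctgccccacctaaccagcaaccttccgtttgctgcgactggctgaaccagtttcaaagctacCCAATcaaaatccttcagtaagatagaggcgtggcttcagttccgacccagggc
C2cd5: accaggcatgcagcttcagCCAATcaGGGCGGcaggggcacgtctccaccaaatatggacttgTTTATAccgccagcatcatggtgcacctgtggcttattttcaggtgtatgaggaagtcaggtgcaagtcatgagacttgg
The Kdm5b and Ssc4d peaks each held a CCAAT box and a GC box, and the Cpeb4 peak held both with an ETS site. The Sh3pxd2a peak held a CCAAT box overlapping a cyclic AMP response element (CRE), flanked by ETS sites. The C2cd5 peak belongs to family 2 and runs in the opposite orientation to the central member printed above.

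Libraries differed in yield. Replicate 1 of H3K4me3 held 64891 regions and replicate 2 held 1730, covering 2.34% and 0.0387% of the genome outside runs of N. Sequencing depth is unknown because no read numbers accompany the lists, and intervals below cover counting error over peaks of 1 library. Peaks of a library are not replicates, so shares are set side by side without a p-value. A TAF4b promoter-TSS peak was present at 16 of 34 germ cell genes (such as Dazl, Ddx4 and Piwil2) and 1 of 22 somatic genes of the fetal testis (such as Sox9, Amh and Star), beside 24.9% of all 21751 protein-coding genes. An H3K4me3 promoter-TSS region was present at 20 of 34, 10 of 22 and 44.0% (43.3 to 44.7) of all. These lists were chosen with earlier results of these data known, so their counts are a description and no independent evidence.

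The intergenic peaks lay at a median of 14666 bp from the nearest start site of the deposited annotation (95% interval 13476 to 17196). Measured to the start sites of the later GENCODE M39 annotation the median was 6308 bp. Distances ran from 1013 to 463964 bp, and the middle 50% of peaks fell between 6506 and 36134 bp. Of the 962 peaks, 63 lay within 2 kb of a start site, 130 between 2 and 5 kb and 155 between 5 and 10 kb. The bin from 10 to 50 kb held 436 peaks, that from 50 to 100 kb held 109, and 69 lay farther away. Peaks upstream of the nearest start site numbered 567, or 58.9% (55.8 to 62.0). In replicate 2 the median distance was 11425 bp (7291 to 17725), and 31 of 49 peaks were upstream. The class boundary lies at 1000 bp upstream and is set by the annotation program, so the lower end of these distances is not a measurement.

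**Figure D1:**
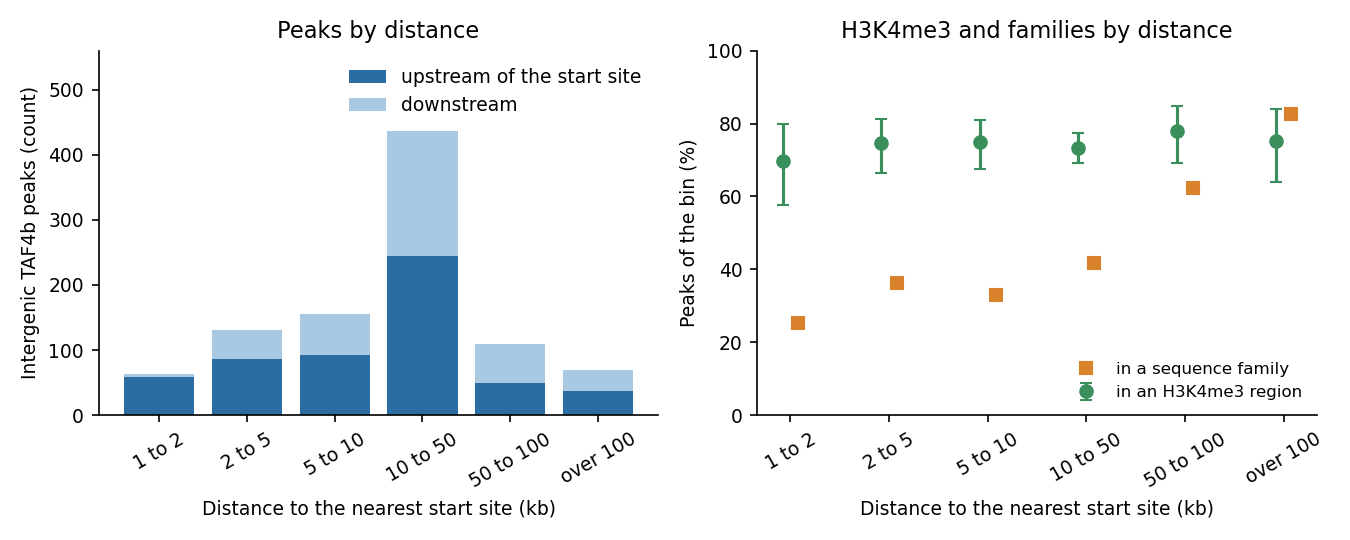
Left, number of intergenic TAF4b peaks of replicate 1 in bins of distance to the nearest start site (kb), divided into upstream and downstream. Right, percent of each bin lying in an H3K4me3 replicate 1 region (circles, 95% Wilson intervals) and in a sequence family (squares): the H3K4me3 share stayed between 69.8% and 78.0% while the family share was 25.4% in the nearest bin and 82.6% in the farthest.

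At the class boundary the members just inside were upstream of Rfx3, a ciliary transcription factor, by 1013 bp with a score of 13.9, of Igf1r, a growth factor receptor, by 1016 bp with a score of 16.4, and of Kmt2c, a histone methyltransferase, by 1018 bp with a score of 12.9. Those just outside it, and therefore classed as promoter-TSS, were at 996 bp from Trabd2b (score 7.94), 996 bp from Gm42797 (score 7.44) and 995 bp from Gm8900 (score 8.44). Measured to GENCODE M39 start sites, the members just inside lay 191 bp from Gm59190, 41 bp from Igf1r and 15 bp from Gm71748, in that order. The peaks just outside lay 293, 996 and 995 bp from start sites of the genes already named.

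The nearest gene was protein coding for 374 peaks, or 38.9% (35.8 to 42.0), a pseudogene for 287, a long noncoding RNA for 188 and a small RNA for 55. A further 30 were nearest to a gene model of the provisional biotype TEC, 4 to a gene of another kind, and 24 transcript identifiers had no match in the later annotation. The other 938 peaks named 885 different genes. Of the 374 peaks nearest to a protein-coding gene, 120, or 32.1% (27.6 to 37.0), had a nearest gene that also carried a TAF4b promoter-TSS peak. Counted by gene, 109 of the 347 different protein-coding genes carried one, or 31.4% (26.8 to 36.5). Over all 21751 protein-coding genes the share was 24.9% (24.3 to 25.5). Few intergenic peaks were close to other peaks: 62 lay within 10 kb of another intergenic peak and 69 within 10 kb of a promoter-TSS peak.

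Of all 21751 protein-coding genes, 347, or 1.60% (1.44 to 1.77), were the nearest gene of an intergenic peak. Of the 34 germ cell genes 1 was, Nanos2, an RNA-binding protein required for male germ cell fate, and of the 22 somatic genes 0 were. That peak, chr7:18710789-18710931, had a score of 10.4 and lay 10465 bp upstream of Nanos2. It overlapped neither an H3K4me3 region nor a replicate 2 peak, and Nanos2 had no TAF4b promoter-TSS peak.

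In a later gene set some of the intergenic peaks fell at start sites. The H3K4me3 headers name Ensembl 103, while the TAF4b headers name no command or build. The same annotation and build were assumed for the TAF4b lists. GENCODE M39 is a later release than Ensembl 103 on GRCm39. Of the 962 peaks, 208 or 21.6% (19.1 to 24.3) lay within 1000 bp of a GENCODE M39 start site, against 83.0% over the whole list. That list is mostly promoter-TSS peaks, of which 99.9% lay this close. The share was 44.4% (40.9 to 48.0) of intronic, 69.9% (63.9 to 75.2) of exonic and 46.2% (38.2 to 54.3) of TTS peaks. Among intergenic H3K4me3 regions it was 24.2% (21.2 to 27.5) with a TAF4b peak and 12.7% (12.3 to 13.1) without. For the 208 peaks, the start site belonged to a long noncoding RNA for 176, to a protein-coding gene for 27, to a small RNA for 4 and to a pseudogene for 1. For 32 of the 208 it was a start site of the gene already named as nearest. The peak centre was within 200 bp of the site for 143 of these 208, or 68.8% (62.2 to 74.7), against 94.9% (94.3 to 95.4) of promoter-TSS peaks within 1000 bp of one. In replicate 2, 20 of 49 intergenic peaks, or 40.8% (28.2 to 54.8), were within 1000 bp of a later start site. A broader count that also took in later gene bodies placed 365 of the 962 peaks in or beside a gene.

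Among the higher-scoring peaks several sat almost on such a start site. The Kdm5b peak was 3059 bp upstream of Kdm5b but 10 bp from the start of the noncoding RNA Gm57134. The peak 18424 bp upstream of Fos, the immediate-early transcription factor gene, was 36 bp from the start of Gm38543. The peak 8224 bp downstream of the start of Tex44, a testis-expressed gene, was 14 bp from that of Gm71162. The peak 1343 bp upstream of Ptma, which encodes prothymosin alpha, was 98 bp from the start of Gm57135, inside an H3K4me3 region of 5123 bp with a score of 404.0. These 4 peaks had TAF4b scores of 28.8, 37.7, 35.2 and 32.8 in that order. Among the 10 highest scores, the Nr4a1 and Lncppara peaks also lay near a later start site, at 135 and 107 bp. Farther from one were Pura at 5546 bp, Mir148a at 7487, Gm45124 at 1552, Gata5os at 9081 and Gm10280 at 13795.

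Most intergenic TAF4b peaks carried H3K4me3. In replicate 1, 714 of 962 or 74.2% (71.4 to 76.9) overlapped an H3K4me3 region by 1 bp or more, against 84.1% over the whole list, 86.3% (85.4 to 87.2) for promoter-TSS peaks and 80.2% (77.2 to 82.9) for intronic peaks. In this replicate the interval of the intergenic share did not reach that of the promoter-TSS share. The overlap did not fall with distance: it was 69.8% (57.6 to 79.8) within 2 kb of a start site and 75.4% (64.04 to 84.0) beyond 100 kb. For replicate 2 of TAF4b, 40 of 49 intergenic peaks or 81.6% (68.6 to 90.0) overlapped a replicate 1 H3K4me3 region, against 89.0% over that list and 90.8% (88.5 to 92.6) of its promoter-TSS peaks, and these intervals overlap. The short H3K4me3 list of replicate 2 covered 12 of the 962 peaks, or 1.25% (0.715 to 2.17), against 6.92% over the whole list, and 5 of the 49 replicate 2 peaks, against 12.4%.

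The H3K4me3 regions under intergenic peaks were narrower and scored lower than those under promoter-TSS peaks. Their median width was 915.5 bp (863 to 955) over 708 regions, against 1502 bp (1483 to 1524), and their median score was 61.1 (58.1 to 64.1) against 98.4 (95.4 to 98.4). Scores here are the authors' own values within the H3K4me3 replicate 1 list. Within the intergenic class of H3K4me3, the 703 regions with a TAF4b peak of any class had a median width of 912 bp (851 to 953) and a median score of 59.6 (58.1 to 64.1), while the 26637 without one had 653 bp (649 to 656) and 37.3 (37.3 to 38.8). TAF4b peaks were thus found in 2.57% (2.39 to 2.77) of intergenic H3K4me3 regions. Of the 714 peaks in a region, 74.4% (71.0 to 77.4) had their centre in the inner 50% of it, and for promoter-TSS peaks the share was 75.7% (74.5 to 76.9).

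Of the 248 intergenic peaks outside any H3K4me3 region, 194 lay more than 1 kb from one. The median score of the 248 was 9.43 (9.43 to 9.93), against 10.9 (10.4 to 11.4) for the 714 inside, and 2 of them were found in replicate 2, against 23. A later start site was within 1000 bp of 13.7% (9.98 to 18.5) of them, against 24.4% (21.4 to 27.7) of those inside. The highest-scoring peak without the mark, with a score of 37.7, lay 91249 bp downstream of the start of the microRNA gene Mir148a at chr6:51155570-51155712.

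The intergenic peaks scored low within their list, as did the other classes away from promoters. The intergenic median score was 10.4 (9.93 to 10.9) and that of promoter-TSS peaks 16.9 (16.9 to 17.4), and 792 of 962 or 82.3% (79.8 to 84.6) scored at or under the median of the whole list. Medians were 10.4 (9.93 to 10.9) for intronic, 10.4 (9.93 to 10.9) for exonic and 10.9 (9.93 to 12.4) for TTS peaks. The intergenic range was 6.45 to 58.1, and the highest ranked 16th by score among all 7861 peaks. That top peak lay 6159 bp upstream of Pura, which encodes a single-stranded nucleic-acid-binding protein. The focus ratio, a fraction deposited by the authors that describes how sharply reads gather around the peak centre, had a median of 0.676 for intergenic and 0.640 for promoter-TSS peaks.

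Recovery in replicate 2 was low and followed the score. Of the 962 peaks, 25 or 2.60% (1.77 to 3.81) overlapped a replicate 2 peak, against 8.37% over the whole list and 10.6% (9.79 to 11.4) for promoter-TSS peaks. Other classes were recovered about as rarely, at 2.28% (1.43 to 3.61) of intronic, 1.61% (0.626 to 4.06) of exonic and 2.80% (1.09 to 6.97) of TTS peaks. When the list was divided into 5 groups of rising score, the recovered share of intergenic peaks was 0 of 463 (which allows a share of up to 0.648%), 0.405%, 4.93%, 9.59% and 27.0% (15.4 to 43.0). For promoter-TSS peaks in the same groups it was 0 of 857 (up to 0.350%), 0.654%, 2.19%, 7.96% and 32.7% (30.3 to 35.2). The intervals of the classes overlapped in each of the 5 groups, and 48.1% of intergenic peaks were in the lowest group against 14.9% of promoter-TSS peaks. H3K4me3 overlap showed a similar course in the intergenic class, at 68.5% (64.1 to 72.5) in the lowest group and 91.9% (78.7 to 97.2) in the highest. For promoter-TSS peaks these ends were 81.6% (78.8 to 84.0) and 90.1% (88.5 to 91.6).

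**Figure D2:**
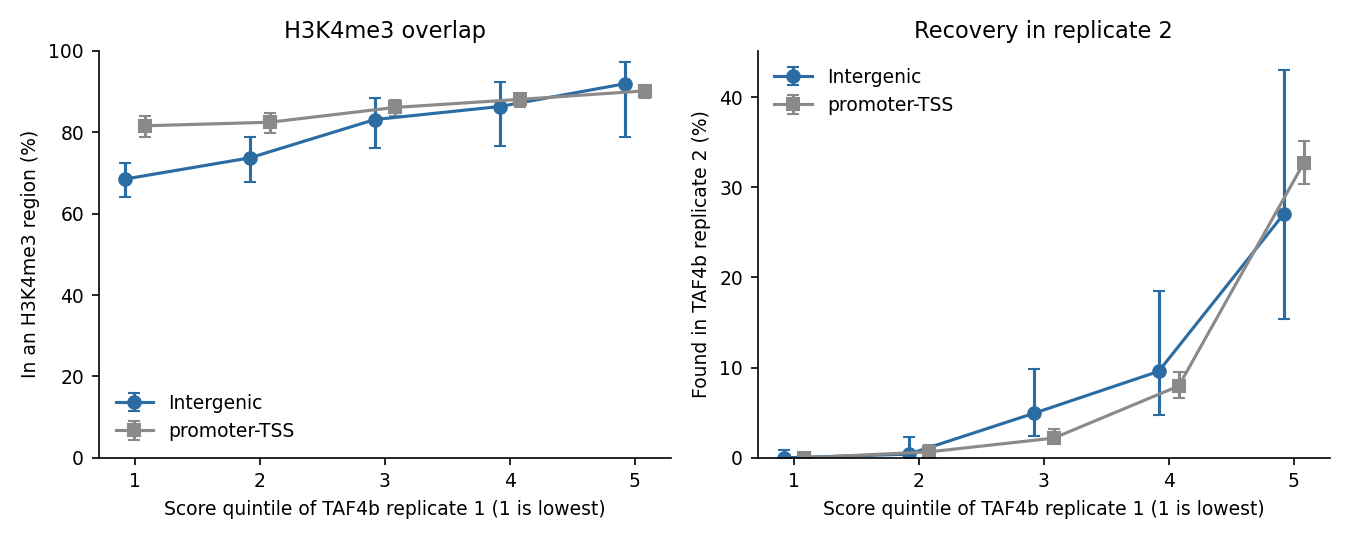
Percent of intergenic (circles) and promoter-TSS (squares) TAF4b peaks of replicate 1 that overlapped an H3K4me3 replicate 1 region (left) or a TAF4b replicate 2 peak (right), by score quintile of the whole list, with 95% Wilson intervals. Intergenic H3K4me3 overlap was 68.5% in the lowest and 91.9% in the highest quintile, and recovery in replicate 2 was 0% and 27.0%.

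The 25 peaks seen in both replicates had a median replicate 1 score of 18.9, against 10.4 for the other 937. Of the 25, 23 overlapped H3K4me3, or 92.0% (75.03 to 97.8), against 691 of the 937, or 73.7% (70.8 to 76.5). A later start site lay within 1000 bp of 10 of the 25, or 40.0% (23.4 to 59.3), and of 198 of the 937, or 21.1% (18.6 to 23.9). A CCAAT box was held by 18 of the 25, or 72.0% (52.4 to 85.7), and by 514 of the 937, or 54.9% (51.7 to 58.02), and in each of these comparisons the intervals overlap. Replicate 2 scores are on that library's own scale and reached 117.4 at the Pura peak, 101.2 at Kdm5b, 97.2 at Gm42489 and 72.9 at Cpeb4, whose replicate 1 scores were 58.1, 28.8, 24.3 and 23.8. The Sh3pxd2a peak scored 29.3 and 68.8 in replicates 1 and 2, and the Ssc4d peak 27.3 and 68.8. The Cpeb4 peak, 1418 bp upstream of that gene, was 81 bp from the start of the noncoding RNA Gm57354. The Ssc4d peak, 4577 bp downstream of that start, was 43 bp from the start of Gm72968.

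The Gm42489 peak lay 50606 bp from its nearest deposited start site and 3608 bp from the later start of Gm71406, inside an H3K4me3 region of 1303 bp. The peak 60625 bp from Fsip2, a sperm fibrous sheath gene, belonged to family 1 and scored 26.8 and 52.6. The peak 108365 bp from the pseudogene Gm9923, and 17813 bp from the later start of Gm66491, belonged to family 5, with scores of 14.9 and 56.7. The C2cd5 and Rgs6 peaks both belonged to family 2. The C2cd5 peak scored 15.9 and 60.7 and lay outside H3K4me3, while the Rgs6 peak, near a regulator of G protein signalling, scored 17.9 and 56.7 inside a region of 840 bp and was 3075 bp from the later start of Gm60747. The remaining members of the 12 with the highest replicate 2 scores among these 25 were Lncppara at 30.8 and 56.7 and Mir465 at 19.9 and 52.6. They lay 107 bp from the start of Gm56736 and 171 bp from that of Gm61780.

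**Figure D3:**
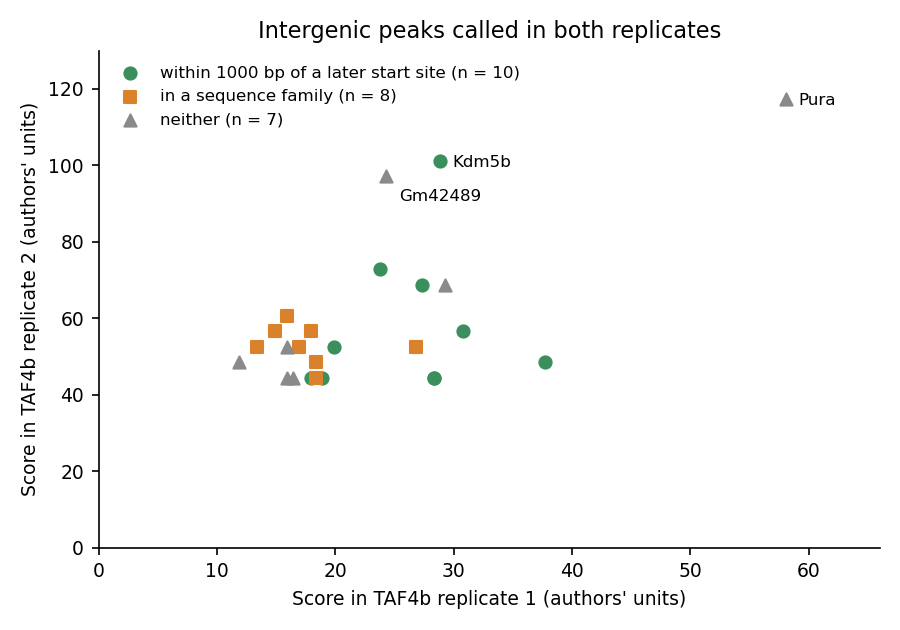
Scores in TAF4b replicate 1 (x axis) and replicate 2 (y axis) of the 25 intergenic peaks called in both, in the authors' units of each library. Circles mark the 10 within 1000 bp of a later start site, squares 8 others in a sequence family and triangles the other 7, and Pura stands apart at 58.1 and 117.4.

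Among the 10 highest scores of replicate 1, Pura, Fos and Lncppara were found in replicate 2 and 7 were not. The unrecovered ones included the peak 7829 bp upstream of Nr4a1, an orphan nuclear receptor gene, at 41.2, which was 135 bp from the start of Gm63023. They also included Gm45124 at 36.2, the lncRNA Gata5os at 33.7 and Gm10280 at 31.3, beside the Mir148a, Tex44 and Ptma peaks given above. Of all 10, only the Mir148a peak lacked H3K4me3.

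Sequence shared between peaks was common in the intergenic class. Peaks were aligned to one another, and 421 of 962 or 43.8% (40.7 to 46.9) matched at least 1 other intergenic peak over 80 bases or more. Without the peaks whose sequence occurs several times in the genome, described with the families below, the share was 24.1%. Among promoter-TSS peaks aligned in the same way the share was 1.55% (1.26 to 1.899), although that class held 5756 peaks, and among the 747 intronic peaks it was 18.5% (15.9 to 21.4). The 421 fell into 32 families, of which 13 were pairs. The 5 largest held 98, 75, 55, 51 and 37 peaks. The deposited column for repeat classes was empty in every list, so the families are numbered here by size and not named. Families made up 82.6% of the 69 peaks over 100 kb from a start site and 25.4% of the 63 within 2 kb.

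Copies of the 5 central members in GRCm39 were many, and few of them carried a TAF4b peak. Family 1 had 14749 copies, of which 128 or 0.868% (0.730 to 1.03) held a replicate 1 peak of any class. Family 4 had 7858 copies with 78 occupied, or 0.993% (0.796 to 1.24). The shares were 3.24% (2.66 to 3.94) of 2964 copies in family 2 and 2.73% (2.13 to 3.48) of 2273 in family 3. Family 5 was the smallest and the most often occupied, with 63 of 653 copies or 9.65% (7.61 to 12.2). In family 1, 66.1% of copies lay within 300 bp of another copy, so that neighbouring copies can share a peak, while at most 0.352% did in the other 4 families.

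Occupied copies lay in H3K4me3 regions more often than unoccupied ones. In family 1, 82.0% (74.5 to 87.7) of copies with a TAF4b peak lay in an H3K4me3 region, against 18.2% (17.6 to 18.8) of copies without. The corresponding values were 57.3% (47.3 to 66.7) and 11.1% (9.96 to 12.3) in family 2, 64.5% (52.1 to 75.3) and 14.3% (12.9 to 15.8) in family 3, and 67.9% (57.0 to 77.3) and 7.80% (7.23 to 8.42) in family 4. Family 5 gave 77.8% (66.1 to 86.3) and 36.4% (32.7 to 40.4). The intervals of occupied and unoccupied copies were separate in each of the 5 families. Reads from near-identical copies are hard to place, as described below. A copy without placed reads could show neither a TAF4b peak nor an H3K4me3 region. The part of read placement in these values, and in the low occupied shares above, was not tested.

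**Figure D4:**
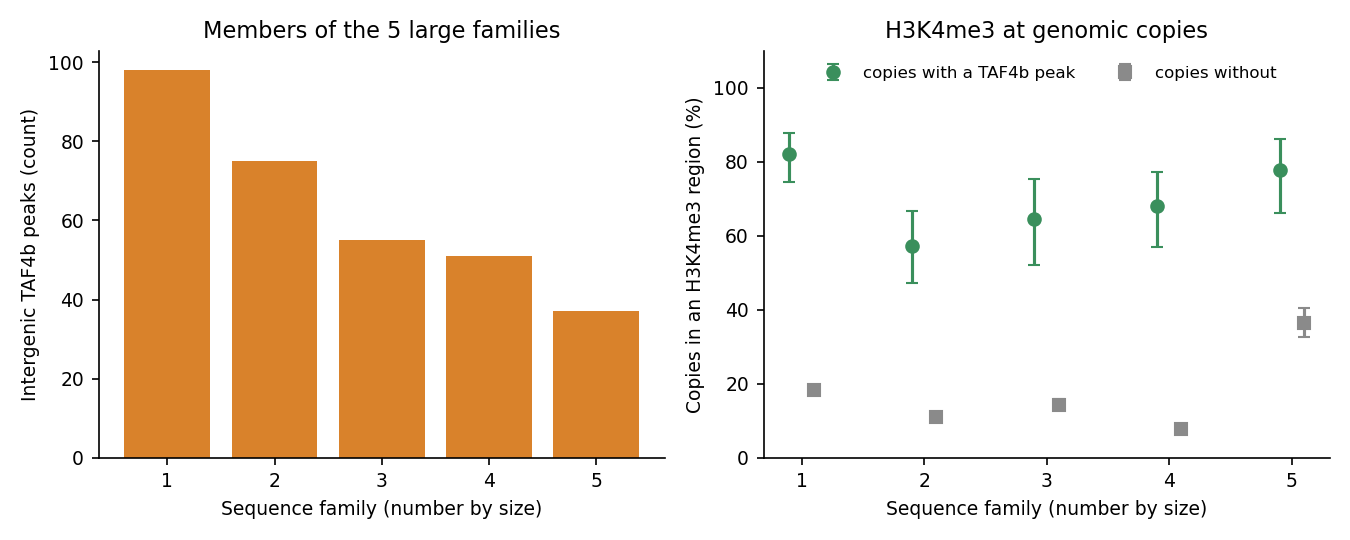
Left, number of intergenic TAF4b peaks in each of the 5 largest sequence families. Right, percent of the genomic copies of each family's central member that lay in an H3K4me3 replicate 1 region, for copies with a TAF4b replicate 1 peak (circles) and without one (squares), with 95% Wilson intervals: circles lie between 57.3% and 82.0% and squares between 7.80% and 36.4%.

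In family 2 the CCAAT box varied among copies. It was present in 1826 of the 2964 copies, and 5.09% (4.18 to 6.20) of these held a TAF4b peak, against 0.264% (0.0897 to 0.772) of the 1138 copies without it. A copy could be aligned over only part of the central member, so copies without the box include ones whose aligned stretch leaves out that part. In family 5 the shares were 9.69% (7.54 to 12.4) of 578 copies with the box and 9.33% (4.59 to 18.03) of 75 without. In families 1, 3 and 4 the box was present in 97.0%, 99.9% and 96.4% of copies, which left 442, 3 and 280 copies without it. In family 1, 0.895% (0.753 to 1.06) of the 14307 copies with the box held a TAF4b peak and 0 of the 442 without it (0 to 0.862), and these intervals overlap. The box was searched in the whole aligned stretch of a copy, which can reach beyond the peak. Inside the peak itself, 73 of the 98 members of family 1 held it. In family 4 the shares were 0.990% (0.790 to 1.24) of 7578 copies with the box and 1.07% (0.365 to 3.10) of 280 without. In family 3 they were 2.73% (2.14 to 3.49) of 2270 with the box and 0 of 3 without.

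Reads from near-identical copies are hard to place, and the members differed in this respect. A peak was called multi-copy when its 31-base words occurred a median of 2 or more times in the genome. This held for 264 intergenic peaks, or 27.4% (24.7 to 30.3), against 5.25% over the whole list and 0.712% (0.526 to 0.965) of promoter-TSS peaks. In replicate 2 it held for 8 of 49 intergenic peaks, or 16.3% (8.51 to 29.04). The median copy number of these words was 9 in families 1 and 4, 5 in family 3, 2 in family 2 and 1 in family 5. How reads with several matches were treated is not given in the sources used here, so which copy was bound cannot be told for the multi-copy members. In family 5, 7 of 37 peaks were multi-copy. Of the 25 peaks seen in both replicates 5 were multi-copy.

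The base composition lay between promoters and the genome. The median GC content of the intergenic peaks was 55.2% (54.5 to 55.9), that of promoter-TSS peaks 64.3%, and that of all non-overlapping genome windows of the same 143 bases 41.3%. The ratio of observed to expected CpG had a median of 0.425 for intergenic and 0.840 for promoter-TSS peaks. In 500-bp windows, 13.9% (11.9 to 16.3) of intergenic peaks met a CpG-island-like criterion of GC over 50% and CpG ratio over 0.6, against 70.8% over the whole list and 86.0% (85.1 to 86.9) of promoter-TSS peaks. In replicate 2 it was 16 of 49 intergenic peaks, or 32.7% (21.2 to 46.6), above the interval of replicate 1.

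The CCAAT box was the most frequent of the 11 consensus sequences searched. Both strands were searched. The sequence CCAAT stood for NFY, while the SP and KLF factors were represented by GGGCGG. For the ETS family the search used CCGGAAG, and for the factor YY1 it used AAGATGGC. The cyclic AMP response element was written TGACGTCA and the E-box of basic helix-loop-helix factors was written CACGTG. The TATA box of core promoters was taken as TATAAA, and the germ cell factor DMRT1 was represented by TACANTGT. The longer NRF1, GFY and CTCF core sequences were searched as well. A sequence could count under more than 1 of them, as where ATTGG overlaps the CRE in the Sh3pxd2a peak. CCAAT was found in 532 of 962 intergenic peaks or 55.3% (52.1 to 58.4), against 39.5% over the whole list, 37.9% (36.7 to 39.2) of promoter-TSS peaks and 22.2% of genome windows. Of the 532, 301 were among 390 peaks of sequence families, whose members share sequence, and the interval treats them as independent. The GC box went the other way, at 19.6% (17.3 to 22.3) of intergenic peaks, 48.5% over the whole list, 56.9% (55.6 to 58.2) of promoter-TSS peaks and 1.39% of genome windows. In replicate 2, where peaks were 189 bases wide, 31 of 49 intergenic peaks or 63.3% (49.3 to 75.3) held CCAAT, against 28.3% of windows of that width. The GC box was in 20 of these 49, or 40.8% (28.2 to 54.8), which is above the interval of replicate 1, against 1.82% of windows. A match is a string of letters and was not tested as a binding site.

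The other sequences were rarer. The CRE occurred in 2.91% (2.02 to 4.17) of intergenic peaks, 4.45% (3.94 to 5.01) of promoter-TSS peaks and 0.0741% of genome windows. The ETS site occurred in 4.26% (3.16 to 5.73), 13.6% (12.7 to 14.5) and 0.396%, in the same order. The E-box occurred in 6.44% (5.06 to 8.18), 7.24% (6.60 to 7.94) and 1.37%, and for the CRE and the E-box the intervals of both peak classes overlap. The CTCF core was found in 18 peaks or 1.87% (1.19 to 2.94), against 0.486% (0.337 to 0.702) of promoter-TSS peaks and 0.0654% of windows. TATAAA was below its genome share, at 2.91% (2.02 to 4.17) against 14.2%, and so was the DMRT1 sequence at 1.14% (0.640 to 2.04) against 2.51%. In promoter-TSS peaks these were at 1.74% and 0.504%. The peaks also had a higher GC content than the windows, given above, and its part in these 2 values was not tested. The YY1 sequence was in 1.98% (1.27 to 3.06) of peaks, 1.93% of promoter-TSS peaks and 1.26% of windows. The NRF1 sequence was in 4 intergenic peaks and GFY in 2, against 86 and 50 of the 5756 promoter-TSS peaks.

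Divided by these features, the 962 peaks fell into 208 near a later start site, 390 others in a sequence family and 364 in neither. The first set included 31 family members. H3K4me3 overlap was 83.7% (78.0 to 88.1), 70.3% (65.5 to 74.6) and 73.1% (68.3 to 77.4) in that order, beside 84.1% of the whole list, which lies inside the interval of the start-site set. Recovery in replicate 2 was 4.81% (2.63 to 8.62), 2.05% (1.04 to 3.99) and 1.92% (0.935 to 3.92), beside 8.37% of the whole list. The H3K4me3 regions beneath them had median widths of 1150 bp (1060 to 1278), 778 bp (758 to 826) and 940.5 bp (843 to 999). Median scores of the TAF4b peaks were within a narrow band, at 11.4 (10.4 to 12.4), 9.93 (9.93 to 10.4) and 10.4 (9.93 to 10.9). The CpG-island-like share was 35.6% (29.4 to 42.3) near later start sites, 4.36% (2.74 to 6.87) in families and 11.8% (8.89 to 15.5) in the rest, beside 70.8% of the whole list.

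The 3 sets differed in sequence content. CCAAT was present in 77.2% (72.8 to 81.1) of the family set, 42.3% (35.8 to 49.1) of the start-site set and 39.3% (34.4 to 44.4) of the rest, beside 39.5% of the whole list, which lies inside the intervals of the start-site set and the rest. It was present in 74.5% of family 1, 84.0% of family 2, 55 of 55 members of family 3, 80.4% of family 4 and 78.4% of family 5. Members of a family share sequence and are not independent examples of the box. At least 2 boxes were present in 39.5% (34.8 to 44.4) of the family set, 19.2% (14.5 to 25.1) of the start-site set and 14.7% (13.8 to 15.6) of promoter-TSS peaks. The GC box was in 33.2% (27.1 to 39.8), 8.97% (6.52 to 12.2) and 23.4% (19.3 to 28.0) of the start-site, family and remaining sets, all below the 48.5% of the whole list. The CTCF core was in 15 of the 364 remaining peaks, 3 of the start-site set and 0 of the 390 in families (which allows a share of up to 0.769%).

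**Figure D5:**
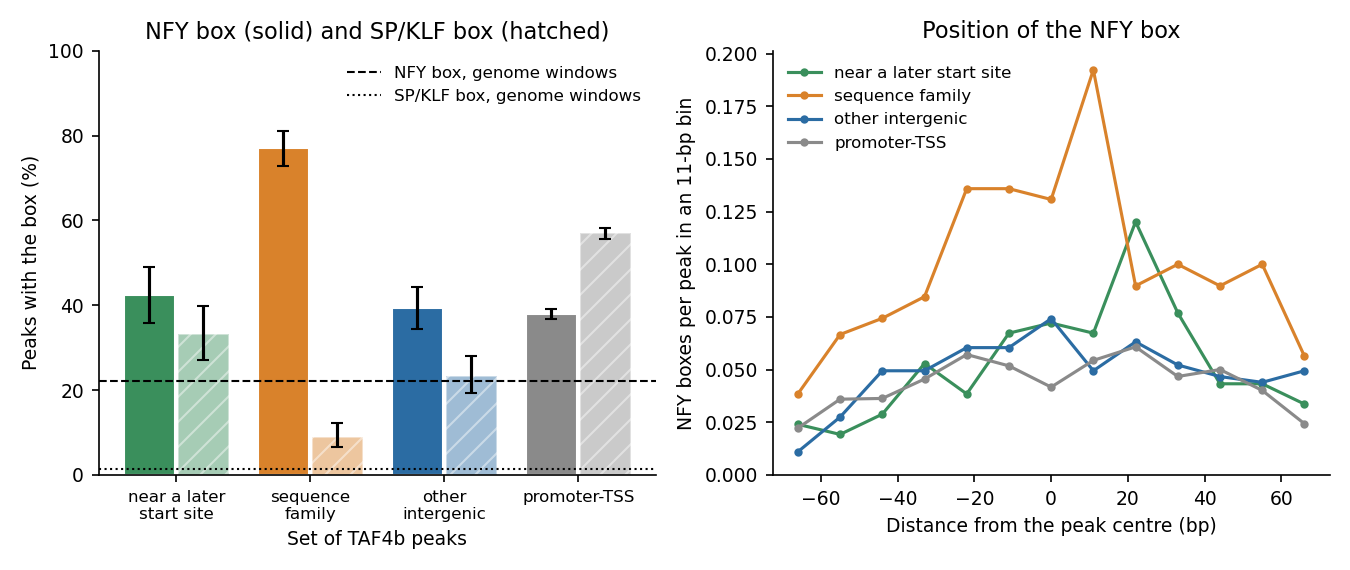
Left, percent of peaks with the NFY box (solid bars) and the SP/KLF box (hatched bars) in the 3 intergenic sets and in promoter-TSS peaks, with 95% Wilson intervals and the shares of genome windows as lines. Right, NFY boxes per peak in 11-bp bins across the peak: the family set, 77.2% of which held the box, has the most boxes per peak in every bin except the one centred at 22 bp, where the start-site set has 0.120 and the family set 0.0897.

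Boxes placed evenly along a peak of 143 bases would have a median offset of 35 bp from its centre, with 51.1% of them within 35 bp. The median offset of 880 CCAAT boxes in intergenic peaks was 26 bp, and 62.7% (59.5 to 65.9) were within 35 bp of the centre. Of these boxes 505 were in the family set, whose members share sequence, and the interval treats them as independent. The share was 63.0% (58.7 to 67.1) in the family set and 67.1% (59.1 to 74.3) in the start-site set. In the remaining set the median offset was 29 bp and the share 59.5% (53.1 to 65.6). In promoter-TSS peaks the median offset was 29 bp and the share 59.4% (57.7 to 61.1). Relative to the later start sites, the 143 boxes of the start-site set had a median position 48 bp upstream, and 50.3% (42.3 to 58.4) lay within 150 bp upstream. The 3259 boxes of promoter-TSS peaks had a median 40 bp upstream, with 72.0% (70.4 to 73.5) in that interval.

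Few genes gathered several intergenic peaks. Of the 885 nearest genes of the 938 peaks with a matched identifier, 840 had 1 peak, 41 had 2, Gm11409 and Zfp992 (a zinc finger gene) had 3 each, Mir148a had 4 and Asmt, which encodes the last enzyme of melatonin synthesis, had 6. The 6 Asmt peaks formed clusters on the X chromosome, with scores from 11.9 to 24.8. A group of 3 at chrX:169013226-169015975 lay 1627, 97 and 980 bp from a start site that GENCODE M39 gives to Sts, the steroid sulfatase gene, and none of these overlapped H3K4me3. The other 3, 11497 to 13401 bp from Asmt, lay 232 to 1224 bp from the starts of Gm61591 and Gm61589, and 2 of them shared an H3K4me3 region of 1960 bp. None of the 6 was found in replicate 2.

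The 4 Mir148a peaks lay from 98798 bp downstream to 1160 bp upstream of its start on chromosome 6. Their scores were 23.8, 18.9, 37.7 and 28.3 in genomic order. The first was 62 bp from the start of the noncoding RNA Gm67150, and the second lay in an H3K4me3 region of 3044 bp that was also covered by the short replicate 2 list. The fourth, 1160 bp upstream of Mir148a itself and 164 bp from the start of Gm38821, was in H3K4me3 regions of both replicates and was found in TAF4b replicate 2 with a score of 44.5. The third, outside H3K4me3, had the highest TAF4b score of the 4.

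The 5 peaks in H3K4me3 farthest from a deposited start site lay 463964 and 358065 bp from Zfp804a, 452212 bp from Gm20693, 449146 bp from AA545190 and 365281 bp from Gm25665, with TAF4b scores of 8.44, 7.44, 7.94, 12.9 and 15.4. Of these 5, 4 belonged to a sequence family, and none was found in replicate 2. The second Zfp804a peak was 1147 bp from the start of the later noncoding RNA Gm75763.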

How the data were processed

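CUT&RUN peaks (TAF4b) and regions (H3K4me3) were read from the lists of 1 library each that the authors deposited. The labels' processing notes, with no role or order, name bcl2fastq 2.20, Trim Galore 0.5.0, FastQC 0.11.5, Bowtie2 2.3.0, SAMtools 1.9, HOMER 4.10 and GRCm39. Per the file headers, H3K4me3 regions were annotated with annotatePeaks.pl and Ensembl 103; the TAF4b headers name no build, and 77.2% of matched intergenic peaks had a deposited distance within 1 bp of that computed on GRCm39 (91.4% within 100 bp). The deposited peak score has no stated normalization and was used within a list. The focus ratio is a fraction the authors deposited. Calling thresholds and depth are not given in the sources used here.

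Overlaps (1 bp or more), start sites (GENCODE M39, 1000 bp), consensus matches, 31-base word counts and blastn alignments (BLAST+ 2.17.0, at least 80 bases, E of 1e-05 or less, single linkage) were computed with Python 3.11.15, pandas 2.3.3, pysam 0.24.0 and scipy 1.17.1, and the interval, word and motif code was tested on simulated data. Intervals are 95% Wilson, or binomial order-statistic for medians. Where a count of 0 is said to allow a share, the limit is 3 counts over the total. Peaks named are those in both replicates (12 highest in replicate 2), the 10 highest in replicate 1, the 5 farthest in H3K4me3, those by listed genes, the genes with most peaks and 3 on each side of the class boundary; ties were broken by score. Peaks, lists and families were chosen with earlier results of these data known. Sequences are from peaks outside chromosome 18. Alternatives changed 1 choice at a time.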

Additional observations from a re-analysis of the deposited data

How the results depend on the processing

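Of 67 alternatives over 12 results, 45 stayed within the interval of the main value (1 SD, 95% interval, or 1.5 times for a count) and 22 moved beyond it; 8 were added after seeing the data. With the higher-scoring 50% of peaks, the intergenic share was 4.11%, H3K4me3 overlap 79.6%, the ratio of intergenic to promoter-TSS median scores 0.563 (main 0.615), recovery in replicate 2 5.01% and the share near later start sites 24.8%. Outside later genes and start sites, the median distance was 18384 bp, the median region width 800 bp and the family share 53.1%. H3K4me3 overlap was 1.25% with the replicate 2 regions, 79.8% within 1000 bp and 50.6% with the higher-scoring 50% of regions. Later start sites were within 500 bp of 18.6% and within 2000 bp of 28.3%; distance on the later annotation had a median of 6308 bp; GC in 500-bp windows was 51.2%. The family share was 40.5% for alignments of at least 100 bases and 24.1% without multi-copy peaks, alternatives added after seeing the data. The cause was not tested.

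Leaving out each TAF4b replicate gave an intergenic share of 5.78% to 12.2%, a median distance of 11425 to 14666 bp, H3K4me3 overlap of 74.2% to 81.6%, a score ratio of 0.615 to 0.867 and later start sites for 21.6% to 40.8%. The consensus sequences whose interval lay wholly above the share of genome windows numbered 5 to 9 of 11. Replicate numbers are shared between antibodies, but the labels do not say that they pair samples: each library gives both classes, so a replicate block cannot move the mean intergenic minus promoter-TSS difference in H3K4me3 overlap, and tests nothing. Against the same-numbered H3K4me3 list the difference was -12.1 percentage points in replicate 1 and -2.76 in replicate 2 (mean -7.42). Against the replicate 1 regions for both, the replicate 2 difference was -9.14 (mean -10.6). The main limits are the unknown depth, 25 of 962 peaks seen in replicate 2, no IgG comparison, and the unknown placement of reads from multi-copy sequence, which holds for 264 of the 962 peaks.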

Other observations

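The 3 highest-scoring intergenic peaks of TAF4b replicate 2 were absent from replicate 1. The peaks 2275 and 2951 bp upstream of Rn18s-rs5, a ribosomal RNA gene, scored 327.9 and 299.6 in replicate 2, and that near Gm11668 scored 214.6. The Rn18s-rs5 peaks overlapped no H3K4me3 region of replicate 1, and the Gm11668 peak did. No IgG comparison was made, so background signal at these peaks was not tested. Of the 49 intergenic peaks of replicate 2, 25 overlapped a replicate 1 peak and 24 did not, while 77.6% of the whole replicate 2 list did.

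Intergenic peaks were spread over every chromosome except Y, which had 0. Density ranged from 0.183 per Mb on X (31 peaks) to 0.472 per Mb on chromosome 17 (45 peaks). X held 3.22% (2.28 to 4.54) of the intergenic and 2.69% (2.31 to 3.14) of the promoter-TSS peaks, and 3 intergenic peaks were on unplaced scaffolds.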
